A study of Mus musculus with 11 samples.

Results

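Transcripts of the epithelial sodium channel and of the aldosterone pathway were followed in distal colon of mice lacking neuregulin-4. The set was named by gene and holds 9 members: the channel subunits Scnn1a, Scnn1b and Scnn1g, the steroid-handling genes Hsd11b2 and Nr3c2, the regulators Sgk1 and Nedd4l, and the pump genes Atp1b1 and Atp12a. The rule uses no measured value. Of the 9 genes, 8 were found by symbol among the 22243 genes of the table, and Nedd4l was not analysed here. Each of the 8 reached 1 TPM (an abundance normalised for the length of the transcript and the size of the library) in all 11 mice.

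Full-thickness distal colon was taken from 5 Nrg4-/- mice (KO) and from 6 wild-type mice (WT). Neuregulin-4 is a growth factor that binds the receptor ErbB4. All were dissected at 11 to 12 weeks of age, and from 9 weeks both genotypes had shared cages. Cage A held KO-1, KO-8, WT-5 and WT-7, cage B held KO-4, KO-9, WT-2 and WT-11, and cage C held KO-3, WT-6 and WT-10. Mice are named by genotype and number. The labels name neither the kind of deletion nor the strain, and both sexes were used without a sex for any mouse. Litters are not stated, so p-values measure the spread between these mice.

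In the surface cells of the distal colon, sodium enters from the lumen through the epithelial sodium channel (ENaC), a complex of an alpha, a beta and a gamma subunit, and is pumped out at the basolateral side by the sodium-potassium ATPase. Aldosterone raises this transport by binding the mineralocorticoid receptor, which induces channel subunits and the kinase SGK1; SGK1 slows the removal of the channel from the membrane. The enzyme encoded by Hsd11b2 inactivates glucocorticoids that would otherwise occupy the same receptor.

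Promoter sequence is shown for Sgk1, the textbook corticosteroid target of the set, and for Scnn1g and Scnn1b, which are neighbours on chromosome 7 and had the highest pairwise correlation among the members. RefSeq windows (GRCm38.p6, 250 bases before to 50 after a start) were found for 5 members: Atp1b1, Scnn1g, Scnn1b, Nr3c2 and Sgk1. Capitals mark the palindromic steroid response element AGAACANNNTGTTCT, its half-site TGTTCT, and the GC box GGGCGG, each searched on both strands; half-sites can lie inside the palindrome. The lines give the name, the position and strand, and the sequence 5′ to 3′.

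Sgk1 upstream window, chr10:21993640-21993939, plus strand: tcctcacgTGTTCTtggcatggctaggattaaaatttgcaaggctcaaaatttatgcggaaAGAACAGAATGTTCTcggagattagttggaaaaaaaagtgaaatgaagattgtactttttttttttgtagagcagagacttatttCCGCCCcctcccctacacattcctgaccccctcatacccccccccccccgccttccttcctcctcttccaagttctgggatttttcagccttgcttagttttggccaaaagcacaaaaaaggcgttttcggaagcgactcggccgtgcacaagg

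Sgk1 window of the measured transcript, chr10:21994416-21994715, plus strand: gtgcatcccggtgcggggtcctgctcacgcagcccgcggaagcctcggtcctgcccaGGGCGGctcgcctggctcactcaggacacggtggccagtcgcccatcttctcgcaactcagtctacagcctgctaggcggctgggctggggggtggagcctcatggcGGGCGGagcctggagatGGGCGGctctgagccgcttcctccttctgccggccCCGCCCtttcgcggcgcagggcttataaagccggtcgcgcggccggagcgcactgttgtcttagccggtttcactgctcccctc

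Scnn1g, chr7:121734229-121734528, plus strand: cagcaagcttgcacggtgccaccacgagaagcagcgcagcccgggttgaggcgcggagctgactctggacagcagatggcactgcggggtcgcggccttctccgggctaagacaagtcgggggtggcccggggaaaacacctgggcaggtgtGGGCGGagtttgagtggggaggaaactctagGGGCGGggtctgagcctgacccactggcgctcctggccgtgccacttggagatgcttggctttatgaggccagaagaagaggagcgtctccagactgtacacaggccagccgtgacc

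Scnn1b, chr7:121864788-121865087, plus strand: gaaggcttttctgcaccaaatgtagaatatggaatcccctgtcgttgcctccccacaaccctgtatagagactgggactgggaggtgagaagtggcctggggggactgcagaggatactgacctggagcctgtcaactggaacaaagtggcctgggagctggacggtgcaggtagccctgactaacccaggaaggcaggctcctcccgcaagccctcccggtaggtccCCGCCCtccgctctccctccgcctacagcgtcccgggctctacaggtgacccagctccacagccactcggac

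The palindrome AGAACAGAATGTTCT was present in the upstream Sgk1 window, at chr10:21993701-21993715. It starts at position -189 from the start of that window's transcript and at -965 from the start of the transcript measured here. The full palindrome was present in 3 of 32851 promoter windows of all genes, or 0.00913%. The half-site was present in 19.0% of all windows and in 3 of the 6 Sgk1 windows, but in no window of the other 4 members. The GC box was present in 35.7% of all windows and in 6 of the 10 member windows. By gene, it was present for 10324 of 27025 genes and for each of the 5 members with a window. A match describes letters in a window and is not evidence of binding.

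The libraries did not differ much in scale, with median-of-ratios factors of 0.978 to 1.04. The summed TPM ranged from 558446 to 770986, and the number of reads behind it is unknown. Mitochondrially encoded transcripts took between 19.0% (KO-1) and 42.9% (KO-3) of the sum. Nrg4 was listed at 0 TPM in every mouse of both genotypes, so it does not check the genotype labels. The summed TPM of 4 Y-linked genes was 32.4 to 41.7 in the 4 mice of cage A and 0.0555 to 0.236 in the 7 mice of cages B and C, so cage A and sex cannot be told apart. The tissue label was matched by 5 posterior Hox genes, whose summed level was 286 to 385 TPM. No marker of squamous epithelium (5 genes) or of kidney collecting duct (3 genes) reached 1 TPM in any mouse. Of 6 small intestine markers, 3 reached 1 TPM in at least 1 mouse, and the list summed to 32.7 to 87.2 TPM.

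The first question was how much of each ENaC subunit the tissue carried and whether this differed between genotypes. The alpha subunit transcript was far more abundant than the other 2 in every mouse. Of the 3 subunit genes, 0 passed the test between KO and WT (limma, false discovery rate, FDR, of 0.05), against 0.0372% of the 10756 genes tested. The largest estimate, for the gamma subunit, had an interval that included 0.

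Scnn1a (ENSMUSG00000030340, chromosome 6, 125320659 to 125344943, plus strand, mm10) encodes the alpha subunit, which is required for a working channel. Its level was 56.1, 32.0, 52.0, 62.9 and 50.6 TPM in KO-1, KO-8, KO-4, KO-9 and KO-3. In WT mice the lowest, median and highest levels were 40.1, 49.9 and 57.9 TPM. The groups overlapped, and KO-8 and KO-9 were the lowest and the highest of all 11 mice. Scnn1a averaged 50.7 ± 11.5 TPM in KO mice (SD, n = 5) and 49.5 ± 7.61 TPM in WT mice (SD, n = 6). The log2 fold change of KO against WT was 0.05 ± 0.15 (SE of the limma fit with cage as a term), with a 95% interval of -0.29 to 0.38.

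Scnn1b (ENSMUSG00000030873, chromosome 7, 121865038 to 121918514, plus strand, mm10) encodes the beta subunit. Its level was 3.93, 3.88, 3.23, 5.52 and 2.08 TPM in KO-1, KO-8, KO-4, KO-9 and KO-3. The lowest, median and highest WT levels were 1.70, 4.68 and 6.50 TPM. The KO values lay within the WT range, whose lowest value belonged to WT-5 of cage A. The log2 fold change was -0.23 ± 0.29, with a 95% interval of -0.86 to 0.41.

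Scnn1g (ENSMUSG00000000216, chromosome 7, 121734479 to 121768475, plus strand, mm10) encodes the gamma subunit and ends 96.6 kb before the start of Scnn1b on the same strand. Its level was 3.05, 2.29, 1.07, 3.85 and 1.03 TPM in KO-1, KO-8, KO-4, KO-9 and KO-3. In WT mice the lowest, median and highest levels were 1.08, 4.67 and 7.94 TPM. The 3 highest values were all in WT mice, WT-10, WT-2 and WT-11, while WT-5 and WT-7 were among the 5 lowest. Scnn1g averaged 2.26 ± 1.23 TPM in KO mice (SD, n = 5) and 4.51 ± 3.04 TPM in WT mice (SD, n = 6). The log2 fold change was -0.71 ± 0.48, with a 95% interval of -1.77 to 0.36 and an unadjusted limma p of 0.169. Scnn1g varied most among the 8 genes, with a highest level 7.71 times its lowest, against 1.49 times for Nr3c2. It was also the least abundant of the 8, at a mean of 3.49 TPM over all mice. The part of counting noise in its spread was not tested.

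**Figure D1:**
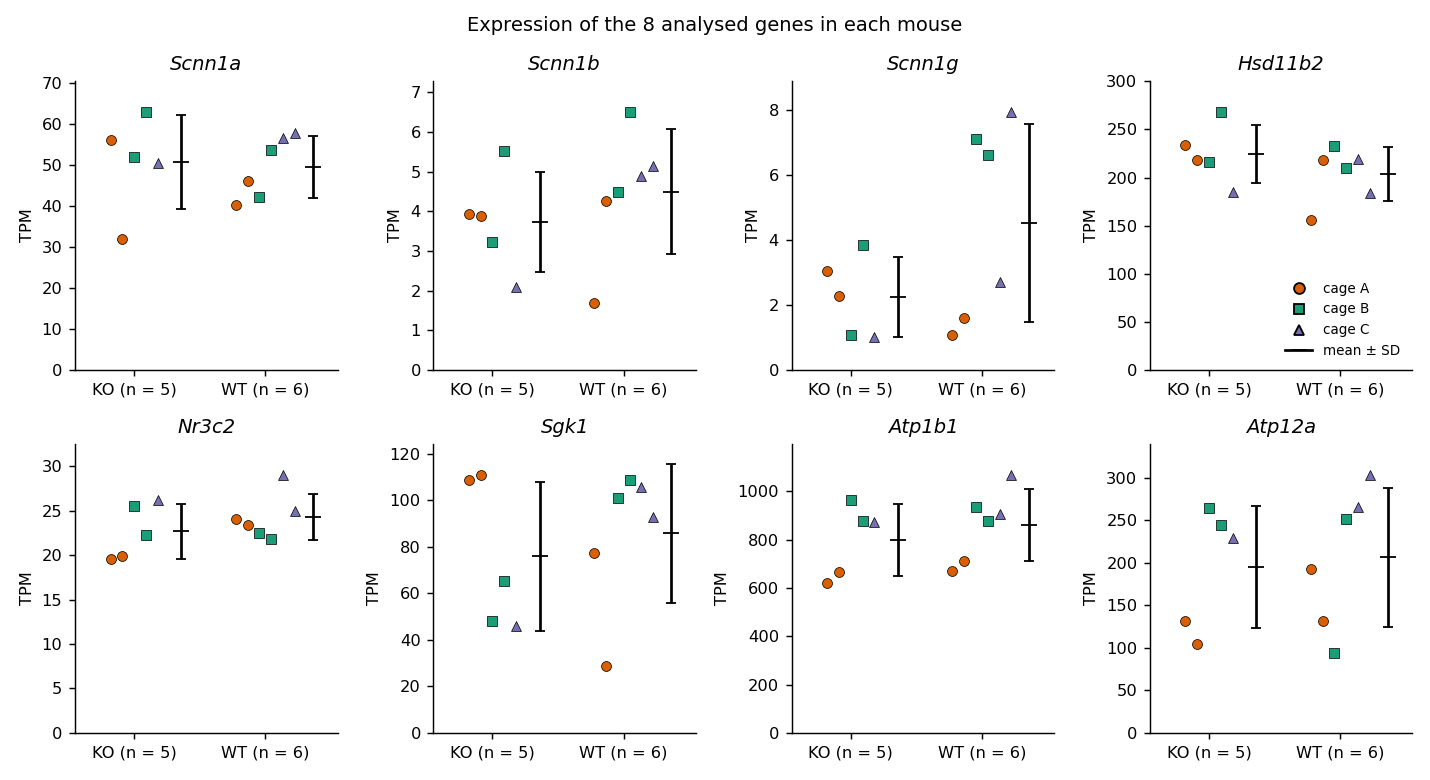
Level in TPM (y axis, from 0) of the 8 genes in each mouse, KO left of WT; symbols give the cage and the bar the mean ± SD. The groups overlap in every panel, Scnn1a lies between 32.0 and 62.9 TPM while Scnn1b and Scnn1g stay below 8 TPM, and the 4 cage A mice are the 4 lowest for Atp1b1.

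Because TPM is scaled for length, the subunits can be set side by side within a mouse. Scnn1a made up 89.3 ± 4.13% of the summed TPM of the 3 subunits in KO mice (SD, n = 5) and 85.1 ± 5.86% in WT mice (SD, n = 6). The share of Scnn1b was 6.73 ± 2.34% in KO mice and 7.51 ± 1.93% in WT mice. That of Scnn1g was 3.996 ± 1.94% in KO mice and 7.36 ± 4.62% in WT mice. These are shares of transcripts, not of channel protein. Each subunit gene had 1 listed transcript, a principal one, so the shares and ratios leave out any other transcript.

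The ratio of Scnn1g to Scnn1b was 0.778, 0.590, 0.332, 0.696 and 0.495 in KO-1, KO-8, KO-4, KO-9 and KO-3. In WT mice its lowest, median and highest values were 0.377, 0.828 and 1.59. The beta transcript exceeded the gamma transcript in all 5 KO mice and in 3 of 6 WT mice, whereas the ratio was above 1 in WT-2, WT-11 and WT-10. The difference in mean log2 ratio was -0.59 (exact two-sided permutation test over 462 splits, p = 0.199, adjusted over the 5 ratios tested p = 0.346). Unlike the limma fit, this test took no account of cage. The ratio of Scnn1g to Scnn1a averaged 0.0456 ± 0.0237 in KO mice and 0.0897 ± 0.0603 in WT mice, a log2 difference of -0.83 (same exact test, p = 0.208, adjusted p = 0.346). The ratio of Scnn1b to Scnn1a averaged 0.0765 ± 0.0300 in KO mice and 0.0895 ± 0.0265 in WT mice, a log2 difference of -0.25 (exact p = 0.459, adjusted p = 0.574). With all cages pooled, no subunit ratio thus separated the genotypes beyond the spread among mice. By cage, the Scnn1g to Scnn1a ratio was 0.0544 and 0.0714 in KO against 0.0270 and 0.0349 in WT mice of cage A. In cage B it was 0.0207 and 0.0611 against 0.168 and 0.123, and in cage C 0.0204 against 0.0480 and 0.137. KO mice were thus above WT mice in cage A and below them in cages B and C. This change of sign between cages was not tested for the ratio.

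**Figure D2:**
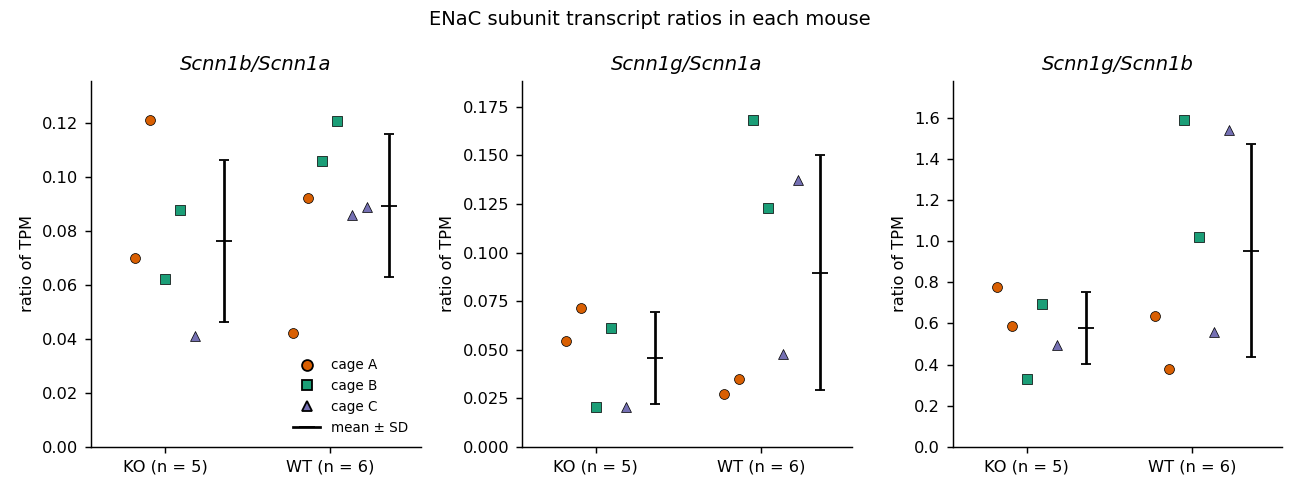
Ratios of TPM between ENaC subunits (y axes, from 0) in each mouse, KO left of WT, with the cage by symbol and the mean ± SD as a bar. The ratio of Scnn1g to Scnn1b exceeds 1 in 3 WT mice of cages B and C and in no KO mouse. KO and WT mice overlap in each panel when cages are pooled.

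The second question concerned the receptor, its gatekeeper enzyme and the kinase downstream. Hsd11b2, Nr3c2 and Sgk1 did not pass the test between genotypes. Hsd11b2 and Nr3c2 were the steadier genes, and Sgk1 varied several-fold between mice of the same genotype.

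Hsd11b2 (ENSMUSG00000031891, chromosome 8, 105518755 to 105523988, plus strand, mm10) had 233.9, 217.9, 215.7, 268.1 and 185.2 TPM in KO-1, KO-8, KO-4, KO-9 and KO-3. The lowest, median and highest WT levels were 156.1, 214.3 and 232.9 TPM. KO-9 and KO-1 were the highest of all mice and WT-5 the lowest, with the rest interleaved. The log2 fold change was 0.12 ± 0.12, with a 95% interval of -0.13 to 0.38.

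Nr3c2 (ENSMUSG00000031618, chromosome 8, 76899442 to 77245012, plus strand, mm10) encodes the mineralocorticoid receptor and had 19.5, 19.9, 25.5, 22.2 and 26.2 TPM in KO-1, KO-8, KO-4, KO-9 and KO-3. In WT mice the lowest, median and highest levels were 21.9, 23.7 and 29.1 TPM. The 2 lowest values were those of the KO mice of cage A, and the log2 fold change was -0.07 ± 0.09, with a 95% interval of -0.27 to 0.13. Nr3c2 was the sum of 2 listed transcripts, of which ENSMUST00000109912.7 averaged 22.7 TPM over all mice and ENSMUST00000109913.8 averaged 0.877 TPM. The minor transcript was listed at 0 in 2 WT mice.

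Hsd11b2 exceeded Nr3c2 by 7.07 to 12.1 times in KO mice and by 6.49 to 10.4 times in WT mice. This ratio of enzyme to receptor transcript averaged 10.1 ± 2.23 in KO mice (SD, n = 5) and 8.45 ± 1.53 in WT mice (SD, n = 6), a log2 difference of 0.25 (exact permutation test, p = 0.208, adjusted p = 0.346). Nr3c1, which encodes the glucocorticoid receptor, averaged 9.23 ± 0.992 TPM in KO mice and 9.76 ± 0.919 TPM in WT mice. Hsd11b1, the enzyme that regenerates glucocorticoids, was listed at 0 in 4 of 5 KO mice and in 2 of 6 WT mice. Its highest level was 1.66 TPM, and only principal transcripts are counted.

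Sgk1 (ENSMUSG00000019970, chromosome 10, 21882184 to 21999903, plus strand, mm10) had 108.9, 111.1, 48.3, 65.4 and 46.0 TPM in KO-1, KO-8, KO-4, KO-9 and KO-3. The lowest, median and highest WT levels were 29.0, 97.0 and 108.7 TPM. The KO mice of cage A were the highest of all 11 mice, and a WT mouse of the same cage, WT-7, was the lowest. Sgk1 averaged 75.9 ± 32.0 TPM in KO mice (SD, n = 5) and 85.8 ± 29.99 TPM in WT mice (SD, n = 6). The log2 fold change was -0.16 ± 0.39, with a 95% interval of -1.04 to 0.72.

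Atp1b1 and Atp12a stand for the pumps. Atp1b1 (ENSMUSG00000026576, chromosome 1, 164437109 to 164458355, minus strand, mm10) encodes the beta-1 subunit of the sodium-potassium ATPase and was the most abundant of the 8 genes. Its level was 620.3, 666.4, 966.1, 876.9 and 871.5 TPM in KO-1, KO-8, KO-4, KO-9 and KO-3. In WT mice the lowest, median and highest levels were 670.7, 891.4 and 1069 TPM. The genotypes overlapped, whereas the 4 mice of cage A, of both genotypes, were below all others, and the log2 fold change of KO against WT was -0.07 ± 0.08, with a 95% interval of -0.25 to 0.10.

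Atp12a (ENSMUSG00000022229, chromosome 14, 56365068 to 56388550, plus strand, mm10) encodes the catalytic subunit of the colonic proton-potassium ATPase, which takes up potassium at the luminal side. It had 132.1, 104.3, 264.1, 244.3 and 229.2 TPM in KO-1, KO-8, KO-4, KO-9 and KO-3. In WT mice the lowest, median and highest levels were 94.4, 222.2 and 303.7 TPM. The lowest value of all was in WT-2, a cage B mouse, and the other low values were in cage A. The log2 fold change was 0.03 ± 0.28, with a 95% interval of -0.59 to 0.65. Atp4a and Atp4b, the gastric pump subunits, did not exceed 0.09 TPM in any mouse.

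Between KO and WT, 0 of the 8 genes passed FDR 0.05 in limma with Benjamini-Hochberg adjustment, against 0.0372% of the 10756 genes tested. At an unadjusted p under 0.05 the count was 0 of 8, against 3.1% of all genes. The authors' deposited table gave a q-value of 1 for each of the 9 transcripts of these genes and a lowest p-value of 0.194, for Scnn1g. Estimates were positive for 3 genes and negative for 5, with a median log2 fold change of -0.07, beside -0.01 over all genes tested. For none of the 8 did the KO and WT mice separate without overlap, which 0.223% of all genes did. The intervals bound what these mice could show: they were narrowest for Atp1b1, at 0.843 to 1.07 times WT, and widest for Scnn1g, at 0.293 to 1.28 times WT. In whole tissue, fewer cells of a type and less RNA per cell cannot be told apart.

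**Figure D3:**
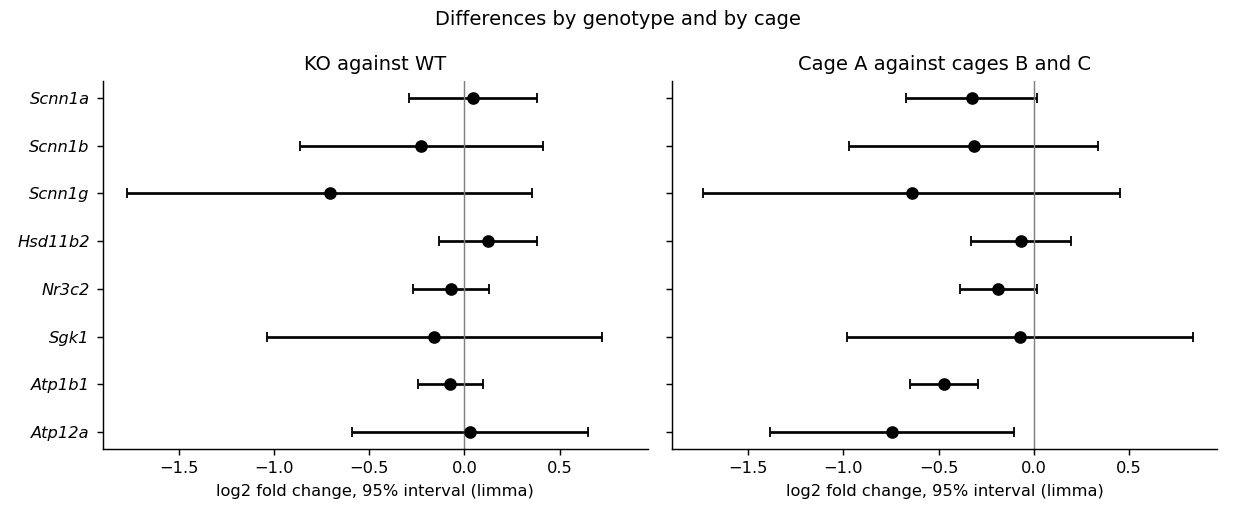
Log2 fold change from limma with its 95% interval (x axis) for the 8 genes, KO against WT on the left and cage A against cages B and C on the right. All 8 genotype intervals cross 0, while in the cage panel those of Atp1b1 and Atp12a lie below 0.

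The wider pathway was described through 8 lists with 63 genes, of which 49 passed the filter on low values. Of these 49 genes, 0 passed FDR 0.05 between KO and WT in limma and 0 had an unadjusted p under 0.05; 20 had positive and 29 negative estimates, with a median log2 fold change of -0.04. All fold changes in the next sentences are KO against WT, none passed the test, and the genes are those with the smallest p in their list. Fkbp5, and the genes described as near 0 TPM, were named after their values were seen.

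All 7 proteases and inhibitors that set channel cleavage were tested. Tmprss4, a serine protease, had 66.8 ± 12.3 TPM in KO mice and 85.4 ± 14.0 TPM in WT mice (log2 fold change -0.35 ± 0.16). The inhibitor Spint1 had a log2 fold change of -0.18 ± 0.13, with 139.7 ± 26.4 TPM in KO mice and 162.6 ± 35.99 TPM in WT mice. Among 11 tested genes of ubiquitin and kinase regulation, Ywhab, which encodes a 14-3-3 protein, had 0.08 ± 0.08, and Wnk4, a kinase of salt transport, 0.24 ± 0.27. Among 6 genes of receptor and steroid handling, Fkbp4, a cochaperone of steroid receptors, had -0.09 ± 0.07. Tmprss4 came closest to a difference in these 3 lists, with an adjusted limma p of 1.000.

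Among 8 corticosteroid-induced genes the median log2 fold change was -0.21, beside -0.01 over all genes tested. Estimates were positive for 3 of these 8 genes and negative for 5. Fxyd4, a regulator of the sodium pump, had 185.4 ± 61.1 TPM in KO mice and 249.5 ± 105.0 TPM in WT mice (log2 fold change -0.30 ± 0.25). Tsc22d3, a glucocorticoid-induced leucine zipper gene, had 19.1 ± 7.70 TPM in KO mice and 24.3 ± 7.81 TPM in WT mice (-0.36 ± 0.30). Sult1a1 of the same list went the other way, with 306.3 ± 43.6 TPM in KO mice and 272.4 ± 62.8 TPM in WT mice (0.16 ± 0.16). Fkbp5, another steroid-induced gene, stood at 39.1 TPM in WT-2 and at 8.70 to 18.6 TPM in the other mice. Among 5 tested pump subunits, Fxyd1 had a log2 fold change of 0.41 ± 0.26.

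Of 5 tested genes of other apical sodium absorption, Slc9a3r2, a scaffold of sodium-proton exchangers, had -0.32 ± 0.28, and the exchanger gene Slc9a2 -0.08 ± 0.11. Slc9a3, a further sodium-proton exchanger gene, had a highest level of 0.0844 TPM. Of 4 tested potassium channel genes, Kcnq1 had 0.14 ± 0.12 and Kcne3 0.10 ± 0.12. Kcnma1, a calcium-activated potassium channel, had a highest level of 0.130 TPM. The data hold principal transcripts only, so low values of Slc9a3, Kcnma1 or Ren1 do not cover other transcripts of these genes. Of 4 tested renin-angiotensin genes, Ace had -0.16 ± 0.13 and Agt 0.19 ± 0.19, and Ren1 did not exceed 0.08 TPM. Every pathway list thus held 0 called genes.

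Cages were compared next, since both genotypes were present in each. In an F test over the 3 cages, 0 of the 8 genes passed FDR 0.05 in limma, against 0% of all genes; the smallest p was that of Atp1b1 (unadjusted 0.000530, adjusted 0.263), and 12.1% of all genes had an unadjusted p under 0.05. In cage A against cages B and C, 0 of 8 passed, against 0.0465% of all genes. At an unadjusted p under 0.05 there were 2 of 8, Atp1b1 and Atp12a, both lower in cage A, against 17.4% of all genes. All 8 estimates were negative, with a median log2 fold change of -0.32, beside 0.03 over all genes tested. Leaving out 1 mouse turned the sign of 3 of them: Sgk1 was at 0.49 without WT-7 and 0.03 without WT-6, and without WT-5 Scnn1b was at 0.04 and Hsd11b2 at 0.06.

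Atp1b1 was at 620.3, 666.4, 670.7 and 710.2 TPM in KO-1, KO-8, WT-5 and WT-7 of cage A. Its lowest, median and highest levels in cages B and C were 871.5, 905.1 and 1069 TPM. Cage A did not overlap cages B and C, and both genotypes were low in cage A. Such a separation was present in 4.04% of all genes tested, and with lower values in cage A in 1.66%. The log2 fold change was -0.47 ± 0.08, or 0.721 times, with a limma p of 0.000145 and an adjusted p of 0.0918. Across 18 alternatives its log2 fold change stayed between -0.50 and -0.43 and its adjusted p between 0.0739 and 0.294.

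Atp12a was at 132.1, 104.3, 192.7 and 131.4 TPM in KO-1, KO-8, WT-5 and WT-7. Its lowest, median and highest levels in cages B and C were 94.4, 251.6 and 303.7 TPM. Except for WT-2 at 94.4 TPM, every mouse of cages B and C was above every mouse of cage A. The log2 fold change was -0.74 ± 0.29, with a limma p of 0.0270 and an adjusted p of 0.239. Scnn1a followed with -0.33 ± 0.15 (adjusted p = 0.308), with a mean of 43.6 ± 10.2 TPM over the 4 mice of cage A and of 53.7 ± 6.51 TPM over the other 7 mice (SD).

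Of the ratios reported here, the 3 ENaC subunit ratios and that of Hsd11b2 to Nr3c2, none passed between cage A and cages B and C (exact two-sided permutation test over 330 splits); adjusted p-values over the 5 ratios tested were 0.758 or above.

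Pathway genes named here for cage A were chosen after their values were seen. Of 49 tested, 0 passed FDR 0.05 in limma, against 0.0465% of all genes, and 13 had an unadjusted p under 0.05, against 17.4% of all genes. Of the 13, 7 were lower in cage A. Slc9a2, an apical sodium-proton exchanger gene, was at 29.5 to 42.3 TPM in cage A and 49.99 to 65.1 TPM in cages B and C (log2 fold change -0.60 ± 0.11, adjusted p = 0.114). Slc26a3, which encodes the apical chloride-bicarbonate exchanger, had -0.79 ± 0.22 (adjusted p = 0.163); without WT-2 it had -0.92 ± 0.10 and passed (adjusted p = 0.0367). Fxyd4 had -0.85 ± 0.26, the potassium channel gene Kcnk5 -1.01 ± 0.28 and Spint1 -0.46 ± 0.13. Among those higher in cage A, Wnk4 had 0.93 ± 0.28 and the potassium channel gene Kcnn4 0.62 ± 0.19.

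Marker lists are given beside these differences, without a test, and the ranges of each list overlapped. The 7 surface colonocyte markers, all above 1 TPM and with Slc26a3 among them, summed to 2157 to 2714 TPM in cage A and 2069 to 4020 TPM in cages B and C. The 8 epithelial markers summed to 7338 to 9151 TPM in cage A and 5731 to 8386 TPM in cages B and C. The 5 smooth muscle markers found summed to 2754 to 5137 TPM in cage A and 2565 to 3995 TPM in cages B and C. The 6 leukocyte markers summed to 6.39 to 64.9 TPM in cage A (median 19.4) and 3.93 to 37.9 TPM in cages B and C (median 6.52). The part of these cell types in the cage differences was not tested. In cage C against cage B, 0 of 8 members passed FDR 0.05 in limma, against 0% of all genes, and 0 of 8 had an unadjusted p under 0.05, against 4.09%.

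The genotype difference was then compared between cages. Sgk1 and Scnn1g were higher in KO than in WT mice within cage A and lower in KO than in WT mice within cages B and C, with no overlap of the genotypes in any cage. Neither passed the adjusted interaction test over all genes.

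In cage A, Sgk1 was at 108.9 and 111.1 TPM in KO mice, against 77.6 and 29.0 TPM in WT mice. In cage B it was at 48.3 and 65.4 TPM in KO mice, against 101.0 and 108.7 TPM in WT mice. In cage C it was at 46.0 TPM in the KO mouse, against 105.6 and 92.9 TPM in WT mice. The KO minus WT differences in mean log2 level were 1.20 (cage A), -0.89 (cage B) and -1.10 (cage C). The KO mice of cage A were thus slightly above all WT mice of cages B and C, which lay between 92.9 and 108.7 TPM.

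Scnn1g in cage A was at 3.05 and 2.29 TPM in KO mice, against 1.08 and 1.61 TPM in WT mice. In cage B it was at 1.07 and 3.85 TPM in KO mice, against 7.11 and 6.61 TPM in WT mice. In cage C it was at 1.03 TPM in the KO mouse, against 2.72 and 7.94 TPM in WT mice. The within-cage log2 differences were 0.78, -1.49 and -1.77 in cages A, B and C. Scnn1b had 0.44, -0.32 and -1.09, but its genotypes overlapped in cages A and B.

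**Figure D4:**
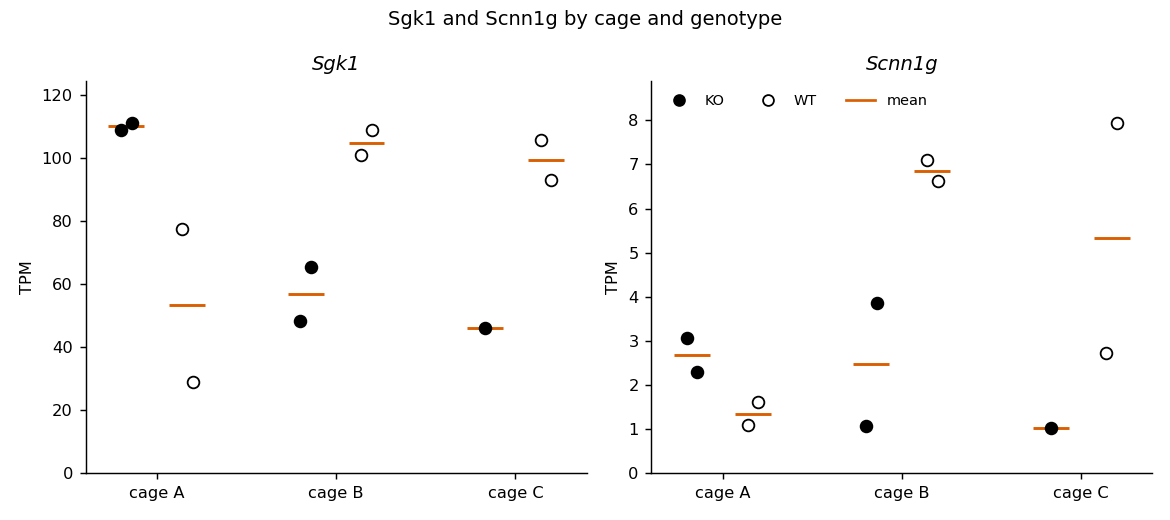
Level in TPM (y axes, from 0) of Sgk1 and Scnn1g by cage, with KO mice as filled and WT mice as open circles and the group mean as a line. In cage A the KO mice lie above the WT mice, and in cages B and C they lie below them; cage C has 1 KO mouse.

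In the F test of the interaction, 0 of the 8 genes passed FDR 0.05 in limma, against 0.0186% of all genes. The unadjusted p was 0.00609 for Sgk1 (adjusted 0.838) and 0.0275 for Scnn1g (adjusted 1.000), the 2 of 8 genes under 0.05, against 3.97% of all genes. A single contrast, the genotype difference in cage A minus that in cages B and C, was added after these values were seen. It was 2.20 ± 0.49 on the log2 scale for Sgk1 (adjusted p = 0.928), 2.41 ± 0.71 for Scnn1g (adjusted p = 1.000) and 1.15 ± 0.50 for Scnn1b (adjusted p = 1.000); 0 of 8 passed, against 0.0186% of all genes. At an unadjusted p under 0.05 it had 2 of 8, Sgk1 and Scnn1g, against 3.26% of all genes. The pattern of no overlap in any cage with cage A opposite was present in 131 of the genes tested, or 1.22%, and in 2 of the 8 genes here. None of the 49 tested pathway genes showed it.

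For Sgk1 the interaction depended on WT-5, the WT mouse of cage A with 77.6 TPM. Without WT-5, Sgk1 passed the F test (adjusted p = 0.0412) and the contrast was 2.90 ± 0.24 (adjusted p = 0.0203). That call rests on WT-7 as the only WT mouse of cage A, at the lowest Sgk1 level of all, and assumes that it varies like the mice of the other groups. Over all 17 alternatives its adjusted p in the F test ran from 0.0412 to 1.000. Without cage A, the KO against WT log2 fold change was -0.98 ± 0.13 for Sgk1 (adjusted p = 0.323), -1.60 ± 0.44 for Scnn1g (adjusted p = 0.601) and -0.63 ± 0.26 for Scnn1b (adjusted p = 0.767), and none passed. In cages B and C, the mitochondrial share was 29.8%, 29.8% and 42.9% in KO-4, KO-9 and KO-3, against 28.2%, 23.0%, 22.3% and 31.4% in WT-2, WT-11, WT-6 and WT-10. With values scaled to nuclear genes the contrast was 2.07 ± 0.50 for Sgk1 and 2.55 ± 0.76 for Scnn1g.

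Finally, the 8 genes were compared with each other over the 11 mice, in 28 pairs. No pair passed a Benjamini-Hochberg adjusted p of 0.05 in a permutation test with 100000 resamples. Scnn1b and Scnn1g had the highest correlation of log2 levels (Pearson r = 0.79, permutation p = 0.00339, adjusted p = 0.0949; Spearman rho = 0.82, permutation p = 0.00342, adjusted p = 0.0958). Without the 2 mice farthest from the Scnn1b median, KO-3 and WT-5, r was 0.73, and among residuals after genotype and cage it was 0.73. Without WT-2 the pair passed (r = 0.82, permutation adjusted p = 0.0484). The next pair was Scnn1a and Atp12a (r = 0.69, permutation p = 0.0153, adjusted p = 0.214; rho = 0.73, permutation p = 0.0144, adjusted p = 0.202), with r = 0.71 without KO-8 and WT-5.

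Scnn1b and Hsd11b2 had r = 0.67 (permutation p = 0.0265, adjusted p = 0.239; rho = 0.37, permutation p = 0.259, adjusted p = 0.486). Without KO-3 and WT-5 their r was -0.01, so the relation over the mice as measured rested on those mice. Among residuals after genotype and cage, with all mice, it was 0.79 (permutation p = 0.00360, adjusted p = 0.0504). The pair of Scnn1a and Sgk1 gave little relation (r = -0.07, permutation p = 0.830, adjusted p = 0.952; rho = -0.03, permutation p = 0.947, adjusted p = 0.947). Scnn1g and Nr3c2 had r = -0.26 over the mice as measured (permutation p = 0.436, adjusted p = 0.642; rho = -0.39, permutation p = 0.238, adjusted p = 0.486), but r = -0.93 among residuals after genotype and cage (permutation p = 7.00e-05, adjusted p = 0.00196). Permuting residuals treats them as independent, which they are not after a fit of genotype and cage, so the residual p-values are too small. That fit holds no interaction, so the genotype differences of Scnn1g that changed sign between cages remain in its residuals. Single cages hold too few mice for an r of their own.

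**Figure D5:**
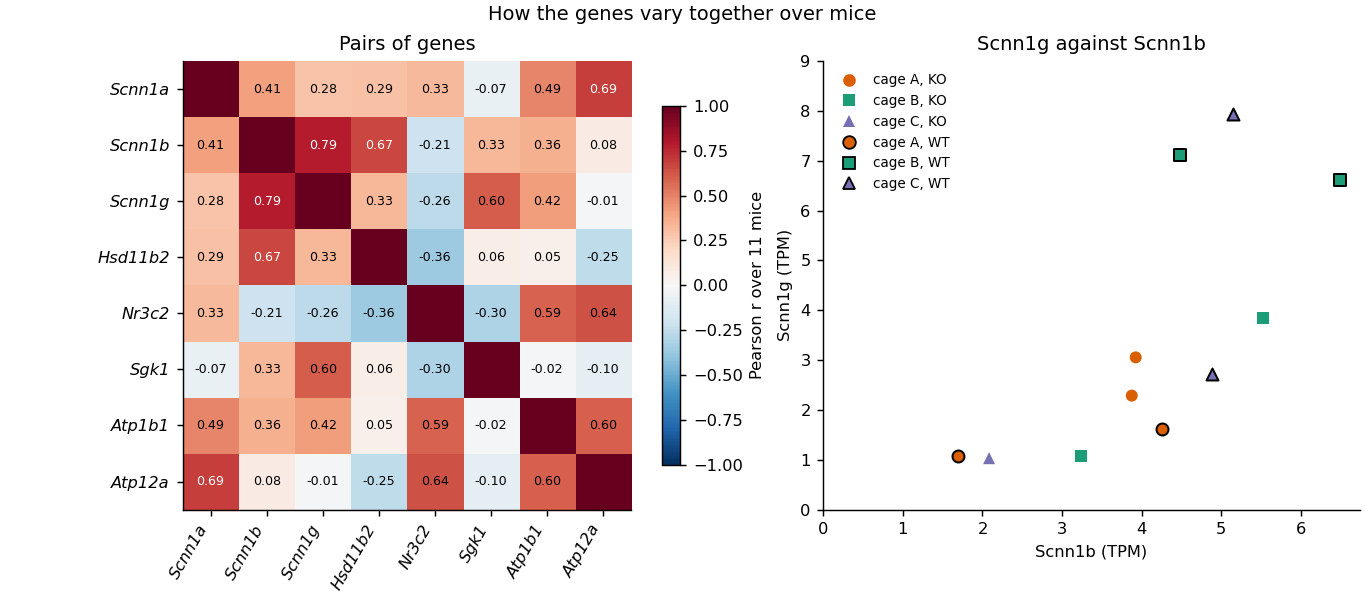
Left, Pearson r over 11 mice for each pair of genes (log2 levels, colour from -1 to 1); right, Scnn1g against Scnn1b in TPM, with cage by symbol and WT outlined. The highest r is 0.79 for Scnn1b and Scnn1g, and the 3 mice with Scnn1g above 6 TPM are WT mice of cages B and C.

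The genes whose levels over the 11 mice were most like those of each subunit are given as a description, by Pearson r of log2 levels among 10464 genes. For Scnn1a they were Clk1 (r = 0.97, at 0 TPM to 2 decimals in its lowest mouse), Eno3 (0.94), Wdtc1 (0.94), Vstm5 (0.94) and Zfp235 (0.94). For Scnn1b they were Cib1 (0.93), Sult1c2 (0.92), Cyp2f2 (0.91), Cryl1 (0.91) and Ocel1 (0.91). For Scnn1g they included Tom1 (0.92), Exosc5 (0.91), Clybl (0.90) and Ptrhd1 (0.89). No gene was shared between these lists, and no subunit was among the top 5 genes of another.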

How the data were processed

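Polyadenylated RNA of distal colon was read as stranded, single-end libraries of 75 bp, per the labels' protocols. CASAVA, kallisto and sleuth were used with mm10, per the submitters' processing notes; their versions are not stated. The authors deposited TPM per principal transcript, and the deposited table also holds their p-value, q-value and log2 ratio per transcript, a mean natural log of estimated counts and test scores, per the file headers; of these only the p-value, q-value and log2 ratio were used. Of 29213 rows, 405 repeated another and were dropped; TPM was summed per gene. Reads per library are unknown, so no counting interval is given.

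The 10756 genes that reached 1 TPM in 5 or more mice were fitted with limma 3.58.1 (R 4.3.3) and a mean-variance trend; the response was log2(TPM + 0.5) and the model held genotype and cage. This scale understates changes of low genes. Benjamini-Hochberg adjustment ran over all genes tested. The script was tested on simulated data. The ratios reported were tested by exact permutation over mice without regard to cage, and correlations by permutation. Alternatives were other pseudocounts, filters, scalings, transcripts, terms and leaving out each mouse or a cage. Genes named beyond the members were the 3 of each list with the smallest genotype p, the 5 most like each subunit, and genes said to be chosen afterwards. Members and lists were chosen with earlier results of these data known. Coordinates are from GENCODE M21 (GRCm38). The planned ratio of Sgk1 to Nedd4l was not run. Of the 5 ratios tested, 4 are reported; some results of the lists and ratios are not reported here.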

Additional observations from a re-analysis of the deposited data

Results flagged for a closer look

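In cage A, Scnn1b in WT-5 stood apart from the other 3 mice at 1.70 TPM, the lowest value of that cage. In cage B, Nr3c2 in KO-4 was at 25.5 TPM, above the 21.9 to 22.5 TPM of the other 3 mice. Its gap was 0.830 of the range, just past the limit of 0.829. Atp12a in WT-2 of cage B was far below the other 3 mice at 94.4 TPM. Atp12a in WT-2 also stood apart among the 7 mice of cages B and C. Of 65 groups of mice checked in this way 4 gave such a value, and chance gives about 1 in 20.

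The KO against WT difference in Sgk1 was 1.20 on the log2 scale in cage A, and had the opposite sign in cages B (-0.89) and C (-1.10). For Scnn1g it was 0.78 in cage A, against -1.49 (cage B) and -1.77 (cage C). The interaction over the 3 cages had an unadjusted limma p of 0.00609 for Sgk1 and 0.0275 for Scnn1g, and neither passed after adjustment over all genes. Cage A also differs from the others in Y-linked transcripts, so that cage and sex cannot be told apart, and cage C has 1 KO mouse.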

How the results depend on the processing

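Beside the reported settings, 22 alternatives were run for KO against WT. The counts of 0 members and 0 pathway genes called in that comparison were the same under each of them. Estimates of Scnn1g stayed negative, from -1.60 (without cage A) to -0.35 (without cage C), those of Sgk1 ran from -0.98 to 0.16, and those of Scnn1b from -0.63 to 0.06. Leaving out 1 mouse at a time gave 0 to 1 members called in the interaction test, Sgk1 being called at an adjusted p of 0.0412 without WT-5, which leaves WT-7 alone as the WT arm of cage A, assumed to vary like the other groups; the interaction could not be fitted without KO-3, which is the only knockout in cage C. The correlated pairs numbered 0 to 2 when 1 mouse was left out. The 2 without WT-2 were Scnn1b with Scnn1g (r = 0.82) and Atp1b1 with Atp12a (r = 0.89, permutation adjusted p = 0.0162). With all mice, Atp1b1 and Atp12a had r = 0.60 (permutation adjusted p = 0.239). Among residuals after genotype and cage, with all mice, the r of Atp1b1 and Atp12a was 0.08. Among residuals after genotype and cage 1 pair passed, at a permutation p that is too small because residuals are not independent. Over all genes, calls ran from 1 to 5 for KO against WT (4 as reported), from 0 to 9 for cage A (5), and from 1 to 49 for the interaction (2), with 12 at a pseudocount of 0.1 and 49 without a filter on low values. Scaling to nuclear genes moved the median of the added contrast over all genes to -0.12, against 0.01 as reported. Single mice could not be paired because mouse numbers are not shared between the genotypes. The genotypes did share cages, and cage was a term in the reported limma fit. The cause of these changes was not tested. With 5 and 6 mice and unknown depth, the intervals of Scnn1b, Scnn1g, Sgk1 and Atp12a leave room for differences of 1.5-fold or more in at least 1 direction.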
